A study of Mus musculus with 7 samples.

Results

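Small leucine-rich proteoglycans are secreted matrix proteins, and 10 of their genes (Bgn, Dcn, Fmod, Lum, Prelp, Ogn, Aspn, Omd, Epyc and Chad) were followed here in nucleus pulposus, the soft inner tissue of the spinal disc. They were taken by gene symbol from the annotation of the array, and all 10 were found, each with 1 feature, among 19505 named genes. RNA was measured on Affymetrix arrays, 1 array per animal. One group was 3 mice lacking MCT4 in the whole body (MCT4KO, 14 months old), a lactate exporter encoded by Slc16a3, and the other was 4 wild-type mice (WT, 13 months old). Age and genotype cannot be told apart, because each group has its own age. Per the labels, heterozygous mice backcrossed 10 times to C57Bl/6N were bred to give knockout and WT littermates, but no litter is named for any sample. The labels give C57BL/6 as strain for every sample, and the design text names C57Bl/6N for the knockouts alone. Material from lumbar and caudal discs of 1 animal was pooled into 1 sample, so regional differences are not visible. The labels do not name the sex of any animal.

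Small leucine-rich proteoglycans share a core of repeated leucine-rich units that lies along collagen fibrils, and they set fibril diameter and spacing. Several carry chondroitin, dermatan or keratan sulfate chains, and some bind TGF-beta or other growth factors. Biglycan, decorin and asporin form class I, while fibromodulin, lumican, PRELP and osteomodulin form class II. Epiphycan and osteoglycin form class III, and chondroadherin belongs to class IV. In the disc, fibromodulin, biglycan and decorin are well-known parts of the matrix of both the core and the surrounding annulus fibrosus.

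Values are the deposited log2 values, and a change is the MCT4KO mean minus the WT mean from a limma fit over all genes, called at a Benjamini-Hochberg adjusted p under 0.05. Background was read from 5222 negative control features, whose median ran from 5.91 to 6.08 over the arrays. Slc16a3 read 5.02, 4.98 and 4.47 in MCT4KO 1 to 3, below the control median of each array, and 13.55, 13.35, 13.61 and 13.40 in WT 1 to 4, at least 179.9-fold lower in MCT4KO (limma adjusted p = 6.7e-09; exact two-sided permutation p = 0.0286, the smallest that 35 splits allow). Of 10 measured nucleus pulposus markers, 8 read above the control median on every array, with Car3 between 19.25 and 19.41. Foxa2 was above it on 6 of 7 arrays, and Foxa1 was at background in all 7 animals. Of the 11 listed markers, T was not found under that symbol. Over all genes 115 were called, 23 higher and 92 lower (26 and 53 after quantile normalization), and between 15 and 64 when any 1 of the 7 animals was left out.

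None of the 10 genes changed in MCT4KO by this test, where 0.590% of all genes did (0.118% higher and 0.472% lower). Their adjusted p ran from 0.13 to 0.98. At an unadjusted p under 0.05 in the same limma fit, 3 of the 10 differed, against 12.7% of all genes: Bgn and Ogn were higher (5.76% of all genes) and Aspn was lower (6.90%). Groups did not overlap for 2 of the 10, Fmod and Aspn, both lower in MCT4KO, against 12.0% of all genes in either direction, 5.66% higher and 6.37% lower. Means were higher in MCT4KO for 4 of the 10 and lower for 6, with a median log2 change of -0.12, against 0.017 over all genes. Without MCT4KO 3 this median was 0.33, and without MCT4KO 2 it was 0.031. Of the 10, 6 genes, Bgn, Dcn, Fmod, Prelp, Ogn and Chad, read above the control median on every array. Epyc was at background on every array, and Lum, Aspn and Omd lay around the control median. In tissue RNA, fewer cells of a type and less RNA per cell cannot be told apart.

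**Figure D1:**
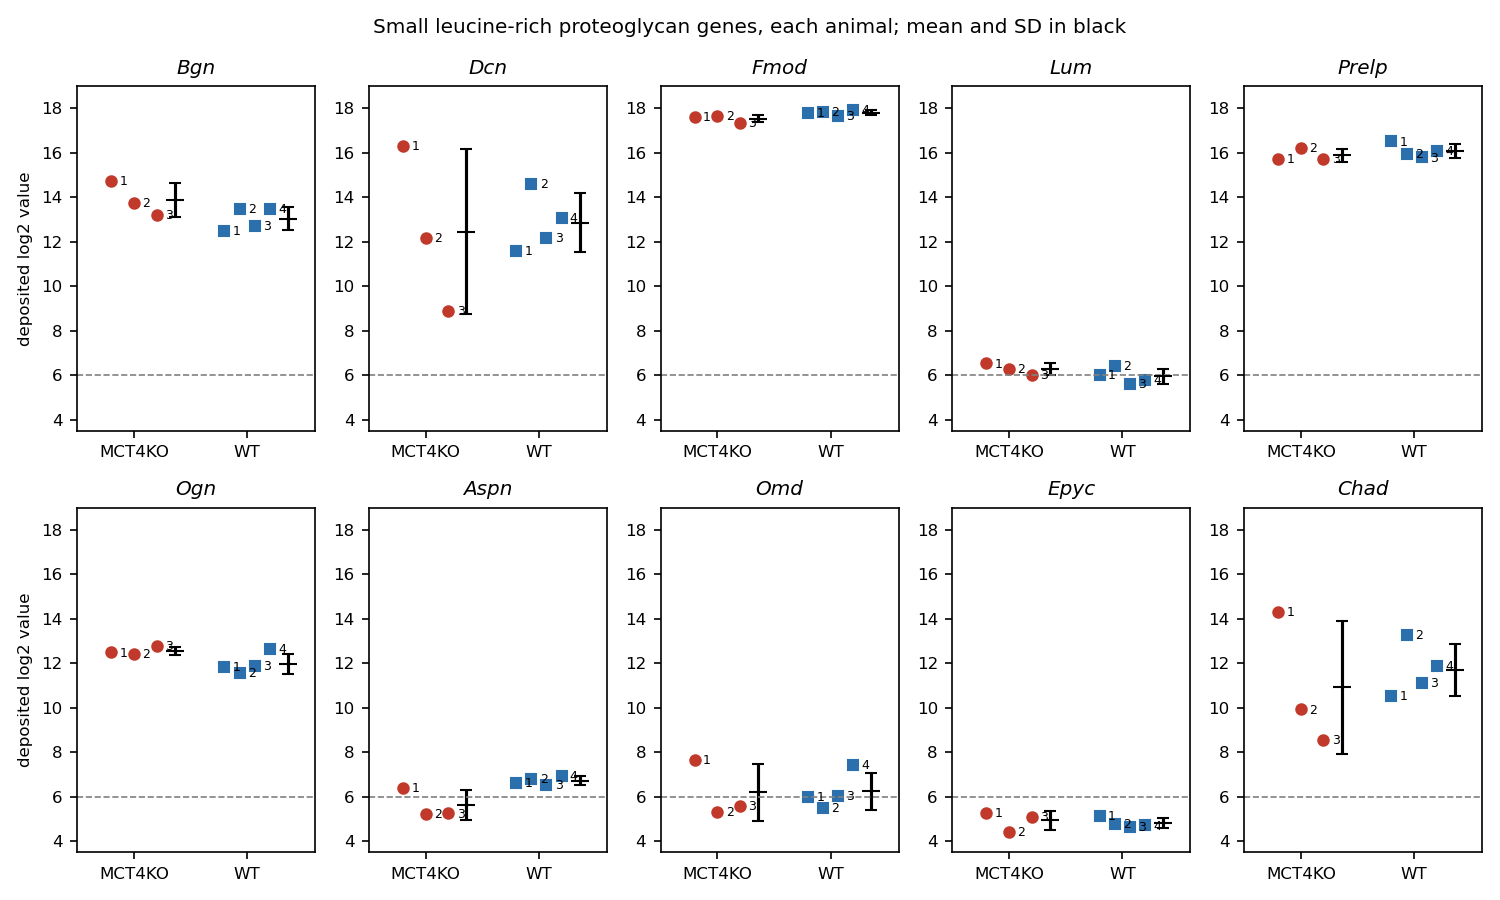
Deposited log2 value of the 10 genes in each animal (MCT4KO circles, WT squares, numbered as labelled), with the group mean and SD in black and the mean control median of the arrays as a dashed line. Fmod and Prelp held a narrow range, while Dcn ran from 8.89 to 16.32 and Chad from 8.56 to 14.29 within MCT4KO.

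Biglycan, a class I proteoglycan with chondroitin or dermatan sulfate chains that binds collagen and TGF-beta, is encoded on the X chromosome. Bgn read 14.72, 13.74 and 13.19 in MCT4KO 1 to 3, against 12.47, 13.48, 12.71 and 13.48 in WT 1 to 4. MCT4KO 1 and 2 lay above every WT animal, and MCT4KO 3 lay among the WT animals. The mean was 13.88 ± 0.776 in MCT4KO (SD, n = 3) and 13.04 ± 0.522 in WT (SD, n = 4), a log2 change of 0.85 ± 0.368 (SE), or 1.80-fold on the deposited scale. The 95% interval, not adjusted for the number of genes, ran from 0.025 to 1.67, and the limma adjusted p was 0.38. Without MCT4KO 1 the change was 0.43. A pair of animals, MCT4KO 3 and WT 1, had the Y-linked genes Uty, Eif2s3y and Kdm5d at background. Uty read 3.56 and 3.26 in this pair, against 10.39 or more in the other 5 animals. The groups may thus mix the sexes, which the labels do not name. Each animal of the pair held the lowest Bgn, Dcn and Chad of its group. This was not shared by all 10 genes, as WT 1 had the highest Prelp of the 7 animals (16.51) and MCT4KO 3 the highest Ogn (12.77). Without this pair of animals none of the 10 genes was called, and the change of Bgn was 1.01. The part of this difference between animals in the values was not tested.

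Decorin, the second class I proteoglycan, binds type I collagen and sequesters TGF-beta. Dcn read 16.32, 12.17 and 8.89 in MCT4KO 1 to 3, against 11.60, 14.60, 12.16 and 13.09 in WT 1 to 4. The 3 knockouts took in the highest and the lowest value of all 7 animals, so the WT values lay inside the MCT4KO range. The span over the 7 animals was 7.43 on the log2 scale, 173-fold on the deposited scale. The within-group SD of Dcn, 2.57, was the 5th largest of 19505 genes, against a median of 0.22, and the 2 largest were the Y-linked Uty and Eif2s3y. The mean was 12.46 ± 3.73 in MCT4KO (SD, n = 3) and 12.86 ± 1.31 in WT (SD, n = 4), and the log2 change was -0.40 ± 1.41 (SE; 95% interval -3.57 to 2.76; limma adjusted p = 0.93). The direction turned with single animals, to a change of 1.38 without MCT4KO 3 and 0.18 without WT 2. Without MCT4KO 1 it was -2.33. In a gene this variable, a difference of several log2 units could not be told from none with 3 and 4 animals.

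Asporin, the third class I protein, carries an aspartate-rich stretch, binds collagen and TGF-beta, and is known in human disc and cartilage disease. Aspn read 6.39, 5.23 and 5.26 in MCT4KO 1 to 3, against 6.61, 6.82, 6.54 and 6.95 in WT 1 to 4. Every WT animal lay above the control median, whereas MCT4KO 2 and 3 lay below it, and the groups did not overlap. The mean was 5.62 ± 0.663 in MCT4KO (SD, n = 3) and 6.73 ± 0.188 in WT (SD, n = 4), a log2 change of -1.11 ± 0.269 (SE; 95% interval -1.71 to -0.50). Its limma adjusted p of 0.13 was the smallest of the 10 genes and did not pass. Without MCT4KO 1 the change was -1.49 and passed (limma adjusted p = 0.028), the 1 fit of the 7 that left out 1 animal in which it did. Since the MCT4KO mean lies below the control median, the size of this difference is uncertain.

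Aspn has 3 relatives next to it on chromosome 13, in the order Ecm2, Aspn, Omd and Ogn among protein-coding genes of the RefSeq annotation of GRCm38.p6. The promoters of Aspn, Omd and Ogn are shown because these neighbours gave different values in the same animals. Each runs from 250 bases before to 50 bases after the RefSeq start on the plus strand of GRCm38.p6, at chr13:49544193-49544492, chr13:49582212-49582511 and chr13:49607765-49608064. Capitals mark matches, on either strand, to TATAAA (the core promoter box named after it), ACGTG (core of the hypoxia response element), TGANTCA (AP-1 site) and ACAAT (core bound by SOX factors). In Ogn, 2 TATAAA matches on opposite strands overlap.
Aspn: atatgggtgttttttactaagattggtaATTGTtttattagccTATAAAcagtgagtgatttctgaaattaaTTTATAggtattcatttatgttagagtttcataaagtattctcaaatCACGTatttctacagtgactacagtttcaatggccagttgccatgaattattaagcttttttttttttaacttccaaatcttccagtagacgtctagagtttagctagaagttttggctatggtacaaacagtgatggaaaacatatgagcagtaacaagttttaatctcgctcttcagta
Omd: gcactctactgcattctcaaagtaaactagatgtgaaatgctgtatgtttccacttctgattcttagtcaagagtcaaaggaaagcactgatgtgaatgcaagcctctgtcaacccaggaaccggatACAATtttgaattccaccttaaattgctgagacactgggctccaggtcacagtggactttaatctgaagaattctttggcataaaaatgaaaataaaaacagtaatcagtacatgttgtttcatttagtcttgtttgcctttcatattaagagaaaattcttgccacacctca
Ogn: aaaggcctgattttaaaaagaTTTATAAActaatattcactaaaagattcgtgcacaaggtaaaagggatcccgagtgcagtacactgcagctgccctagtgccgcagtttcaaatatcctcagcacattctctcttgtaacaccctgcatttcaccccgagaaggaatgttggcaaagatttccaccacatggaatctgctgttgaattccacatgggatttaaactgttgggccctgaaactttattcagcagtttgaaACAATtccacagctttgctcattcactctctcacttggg
The Aspn window held 2 TATAAA, 1 ACGTG and 1 ACAAT, the Omd window 1 ACAAT, and the Ogn window 2 TATAAA and 1 ACAAT. Counted from the RefSeq start, the TATAAA matches lay at -207 and -178 in Aspn and at -229 and -227 in Ogn. Among 32851 promoters of the same length, 13.6% held TATAAA, 19.6% ACGTG, 7.81% TGANTCA and 31.0% ACAAT. G and C made up 31% of the Aspn, 37.7% of the Omd and 42.3% of the Ogn window. A match describes letters and is not a measured binding site.

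Ecm2, a leucine-rich matrix protein beside Aspn that is not one of the 10, read 7.72, 6.85 and 6.14 in MCT4KO 1 to 3, against 10.04, 8.23, 8.67 and 9.05 in WT 1 to 4. The groups did not overlap, and the log2 change of -2.10 ± 0.443 (SE; limma adjusted p = 0.079) did not pass. Osteomodulin, a class II keratan sulfate proteoglycan of bone, is encoded on the other side of Aspn. Omd read 7.67, 5.34 and 5.60 in MCT4KO 1 to 3, against 6.00, 5.50, 6.06 and 7.43 in WT 1 to 4. One animal in each group, MCT4KO 1 and WT 4, stood above the rest, which lay near the control median. Its log2 change was -0.045 ± 0.579 (SE; 95% interval -1.34 to 1.25; limma adjusted p = 0.98), and its sign turned without MCT4KO 2 (0.39), MCT4KO 3 (0.25) or WT 4 (0.35).

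Osteoglycin, also called mimecan, is a class III proteoglycan and the last of this row of genes. Ogn read 12.49, 12.43 and 12.77 in MCT4KO 1 to 3, against 11.82, 11.57, 11.88 and 12.63 in WT 1 to 4. WT 1, 2 and 3 lay below every knockout, and WT 4 lay among the knockouts. The mean was 12.56 ± 0.180 in MCT4KO (SD, n = 3) and 11.98 ± 0.455 in WT (SD, n = 4), a log2 change of 0.59 ± 0.234 (SE), or 1.50-fold. The 95% interval ran from 0.063 to 1.11, and the limma adjusted p was 0.34. Along the chromosome the log2 differences thus ran -2.10, -1.11, -0.045 and 0.59 from Ecm2 to Ogn, none of them past the threshold. Aspn and Omd were read around the control median, and the 95% interval of Omd held the values of both its neighbours. In the other rows of neighbouring family genes, Prelp and Fmod on chromosome 1 had changes of -0.20 and -0.26 beside Optc, and Dcn and Lum on chromosome 10 had -0.40 and 0.32 beside Kera and Epyc. Optc, Kera and Epyc were at background on every array.

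Fibromodulin, a class II keratan sulfate proteoglycan that guides collagen fibril assembly and cross-linking, had the steadiest reading of the 10 genes. Fmod read 17.60, 17.66 and 17.35 in MCT4KO 1 to 3, against 17.79, 17.82, 17.67 and 17.92 in WT 1 to 4. Every knockout lay below every WT animal, though MCT4KO 2 and WT 3 were close. The mean was 17.54 ± 0.164 in MCT4KO (SD, n = 3) and 17.80 ± 0.104 in WT (SD, n = 4), and the log2 change was -0.26 ± 0.136 (SE; limma adjusted p = 0.46). The 95% interval of -0.57 to 0.039 holds changes of less than 1 log2 unit. Its lowest reading stood 11.3 above the control median of its array.

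PRELP, a class II protein with an arginine- and proline-rich end that binds heparin and collagen, read 15.74, 16.21 and 15.71 in MCT4KO 1 to 3, against 16.51, 15.96, 15.79 and 16.07 in WT 1 to 4. The groups overlapped, with the highest value in WT 1. The log2 change of Prelp was -0.20 ± 0.200 (SE; 95% interval -0.65 to 0.25; limma adjusted p = 0.71). Lumican, the class II proteoglycan of cornea, skin and tendon, was close to background. Lum read 6.53, 6.28 and 6.01 in MCT4KO 1 to 3, against 6.01, 6.40, 5.63 and 5.77 in WT 1 to 4, above the control median on 5 of 7 arrays. Its log2 change was 0.32 ± 0.206 (SE; 95% interval -0.14 to 0.78; limma adjusted p = 0.54). Epiphycan, a class III proteoglycan of growth plate cartilage, was at background in all animals. Epyc read 5.26, 4.43 and 5.11 in MCT4KO and 5.16, 4.79, 4.66 and 4.72 in WT, so no size of change can be given.

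Chondroadherin, the class IV member, is a cartilage protein that binds type II collagen and the cell through an integrin. Chad read 14.29, 9.93 and 8.56 in MCT4KO 1 to 3, against 10.54, 13.26, 11.12 and 11.87 in WT 1 to 4. As for Dcn, the knockouts held the highest and the lowest value, with the WT animals between MCT4KO 1 and MCT4KO 2. The mean was 10.93 ± 2.99 in MCT4KO (SD, n = 3) and 11.70 ± 1.18 in WT (SD, n = 4), and the log2 change was -0.77 ± 1.16 (SE; 95% interval -3.37 to 1.83; limma adjusted p = 0.82). Its within-group SD of 2.10 was the 16th largest of all genes. Without MCT4KO 1 the change was -2.45, and without MCT4KO 3 it was 0.41. Chad lies on chromosome 11, as does Slc16a3. Its promoter is shown because Chad was the most variable of the 8 genes with an entry in the promoter table, at chr11:94564797-94565096 on the plus strand of GRCm38.p6, with the same motifs in capitals.
Chad: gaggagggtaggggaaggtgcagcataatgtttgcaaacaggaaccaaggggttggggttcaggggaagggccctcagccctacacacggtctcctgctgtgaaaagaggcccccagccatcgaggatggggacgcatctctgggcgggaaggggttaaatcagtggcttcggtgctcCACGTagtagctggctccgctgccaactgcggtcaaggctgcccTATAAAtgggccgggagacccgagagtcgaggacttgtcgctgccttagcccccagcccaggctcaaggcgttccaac
It held 1 TATAAA on the plus strand, at position -28 from the RefSeq start, and 1 ACGTG on the minus strand, at -72, and G and C made up 61% of it.

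**Figure D2:**
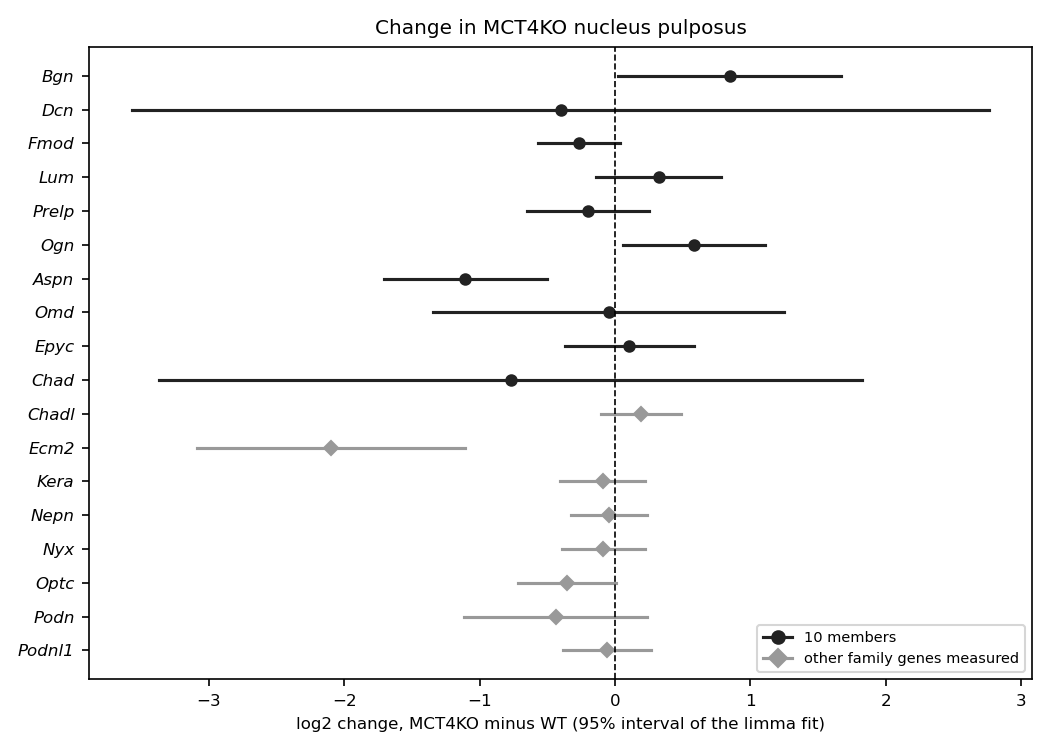
Log2 change, MCT4KO minus WT, with the unadjusted 95% interval of the limma fit, for the 10 genes (black circles) and 8 other measured family genes (grey diamonds). The intervals of Dcn (-3.57 to 2.76) and Chad (-3.37 to 1.83) are the widest, and that of Fmod (-0.57 to 0.039) is the narrowest among the 10, while Epyc, Kera, Nepn, Optc and Podnl1 were at background on every array.

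Dcn and Chad followed each other from animal to animal. MCT4KO 1 had the highest reading of both, then WT 2 and WT 4, and MCT4KO 3 the lowest of both. Likeness was measured as the root mean square difference between the 7 deviations of 2 genes from their own means, among 9837 genes above the control median on every array. By this measure Chad was the gene nearest to Dcn, at 0.60 log2 units, followed by Clec3a, a C-type lectin of cartilage, at 0.60, and Comp, the cartilage oligomeric matrix protein, at 0.78. The gene nearest to Chad was Clec3a, at 0.19, then Dcn at 0.60 and Comp at 0.62. These distances rest on 7 arrays and are given without a test.

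Clec3a read 13.16, 8.85 and 7.32 in MCT4KO 1 to 3, against 9.21, 11.98, 10.16 and 11.13 in WT 1 to 4, the same order of animals as Chad. Comp read 11.58, 8.04 and 6.35 in MCT4KO 1 to 3, against 7.20, 9.36, 8.23 and 9.19 in WT 1 to 4. Neither passed the test (limma adjusted p = 0.80 and 0.96). Col10a1, the collagen of hypertrophic chondrocytes and a marker of cartilage end plate, was looked at after its values were seen. It read 12.11, 9.02 and 7.18 in MCT4KO 1 to 3, against 7.02, 8.50, 7.16 and 7.83 in WT 1 to 4, highest in MCT4KO 1 as were Dcn and Chad (limma adjusted p = 0.45).

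**Figure D3:**
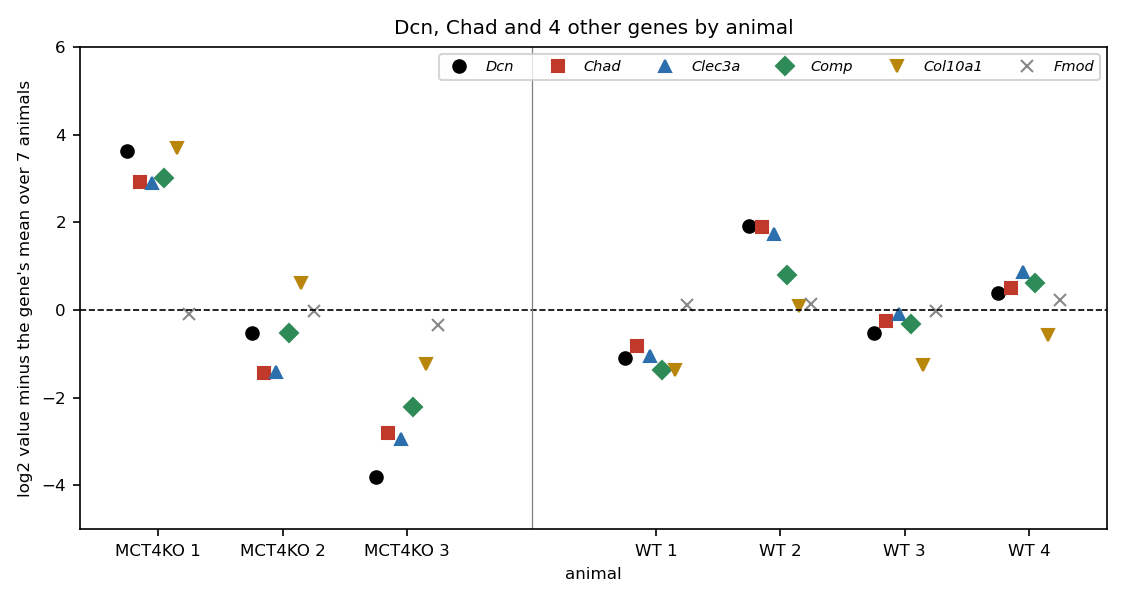
Deviation of each animal from the gene's own mean over 7 animals, in log2 units, for Dcn, Chad, Clec3a, Comp, Col10a1 and Fmod. Dcn, Chad, Clec3a and Comp lie highest in MCT4KO 1 and lowest in MCT4KO 3, while Fmod stays near 0 in every animal.

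Markers of tissues around the nucleus pulposus were read in the same animals. The mean over 9 end plate and hyaline cartilage markers was 9.35, 8.92 and 8.39 in MCT4KO 1 to 3, and 8.84 to 9.24 in WT, so it too was highest in MCT4KO 1 and lowest in MCT4KO 3. Col10a1 is one of these 9, and WT 1, with the lowest Dcn and Chad of the WT animals, had the highest list mean among them, 9.24. Of the markers above the control median on every array, only Col10a1 and Cytl1 were highest in MCT4KO 1. Hapln1, Snorc and Ucma were highest in WT 1, and Snorc was lowest in MCT4KO 1. The order of the list mean was thus not shared by its markers. Within this list Matn1 and Matn3, matrilins of cartilage, were at background on every array. Of its 9 genes 1 changed, against 0.590% of all genes. That gene was Snorc, a cartilage transmembrane proteoglycan, which fell by 1.53 ± 0.227 on the log2 scale (SE; limma adjusted p = 0.026). Its adjusted p was between 0.049 and 0.089 without 1 animal and passed in 2 of the 7 such fits, those without WT 1 or WT 3. Ucma, a secreted cartilage protein, differed by -1.01 ± 0.297 (SE; limma adjusted p = 0.21). The mean over 9 annulus fibrosus and tendon markers was 6.52 to 6.68 in MCT4KO and 6.34 to 6.68 in WT, with 0 changed and Tnmd, Kera and Dpt at background on every array. Thbs4, a tendon matrix protein, had the smallest p of that list (log2 change 0.55 ± 0.181 (SE); limma adjusted p = 0.27). Of 5 measured fibroblast markers 4, and of 6 osteoblast and osteocyte markers 5, were at background in both groups. The other osteoblast marker, Ibsp, which encodes bone sialoprotein, read 8.11, 9.65 and 7.43 in MCT4KO 1 to 3, against 10.95, 9.89, 9.75 and 10.74 in WT 1 to 4. Its groups did not overlap, and the log2 change of -1.94 ± 0.485 (SE; limma adjusted p = 0.14) did not pass, but without MCT4KO 2 it was -2.56 and passed (limma adjusted p = 0.042). Neutrophil and marrow markers had a mean of 5.20 to 5.86 in MCT4KO and 5.92 to 9.74 in WT, with 0 of 10 genes changed. All 10 genes had a lower mean in MCT4KO, against 9174 of 19505 over all genes. The 2 highest means of this list were 9.74 in WT 2 and 7.61 in WT 1, the WT animals with the highest and the lowest Dcn and Chad, and MCT4KO 1, highest in both genes, had 5.86. S100a8 and Ngp, neutrophil granule genes, had the smallest p of the list (limma adjusted p = 0.12 and 0.22). All 5 endothelial markers were at background in both groups, and 6 muscle markers had a mean of 5.68 to 6.39 in MCT4KO and 5.47 to 6.50 in WT. The part of these cell types in the Dcn and Chad values was not tested.

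Other genes stood close to single members by the same measure. Nearest to Bgn were Thbs2, a matricellular thrombospondin, and C4b, a complement component, both at 0.24, and Gm20806 at 0.26. Gm20806 is on the Y chromosome and read 8.28 in MCT4KO 3 and 7.37 in WT 1, above the control median. Thbs2 read 12.68, 11.82 and 10.62 in MCT4KO 1 to 3, against 10.40, 11.12, 10.68 and 10.99 in WT 1 to 4. Nearest to Ogn were Bmp6, a bone morphogenetic protein, at 0.14, Ero1a, an oxidase of the endoplasmic reticulum, at 0.17, and Ociad2 at 0.18. Nearest to Omd were Efemp1, an extracellular matrix fibulin, at 0.35, Lox, the lysyl oxidase that cross-links collagen, at 0.38, and Inhba, the activin A subunit, at 0.45. Among Thbs2, C4b, Bmp6, Ero1a, Efemp1, Lox and Inhba none passed the test. Nearest to Aspn were Olfr1372-ps1 at 0.23, Satb1, a chromatin organiser, at 0.24, and Adgrg6, an adhesion receptor, at 0.24 (limma adjusted p of Adgrg6 = 0.055). Fmod was nearest to Prpsap1 at 0.068, Ppp6r3 at 0.069 and Med13 at 0.070, and Prelp to Cog6 at 0.063, Ppt2 at 0.076 and Wfs1 at 0.091. Lum was nearest to Hyal4 at 0.11, Ikbke at 0.12 and Tcl1b4 at 0.13, and Epyc to Ssxb9 at 0.085, Stard8 at 0.088 and Brip1 at 0.10. Distances are bounded by how much the genes vary, and Lum, Aspn, Omd and Epyc were read near or below the control median.

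MCT4KO 1 had the highest reading of the 7 animals in 6 of the 10 genes (Bgn, Dcn, Lum, Omd, Epyc and Chad). MCT4KO 3 had the lowest in 4 (Dcn, Fmod, Prelp and Chad) and MCT4KO 2 in 3 (Aspn, Omd and Epyc). Epyc was at background on every array, and Lum, Aspn and Omd lay around the control median, so their order of animals is uncertain. The mean over the 10 genes was 11.70, 10.34 and 9.84 in MCT4KO 1 to 3, and 10.42 to 11.02 in WT, so the knockouts lay on both sides of the WT animals. Dcn and Chad weighed most in this spread. Their deviations from their own means were 3.63 and 2.92 in MCT4KO 1, and -3.80 and -2.81 in MCT4KO 3. The spread is thus not a trait of all 10 genes. WT 4 had the highest Fmod and Aspn, WT 1 the highest Prelp, and MCT4KO 3 the highest Ogn.

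Of 9 other genes of the family that were listed, 8 were measured, and 0 changed. One, Ecm2, had an unadjusted p under 0.05, against 12.7% of all genes. Means were lower in MCT4KO for 7 of 8, against 9174 of 19505 over all genes. The median log2 change was -0.088, and -0.0079 with low values raised to the control median. Kera, Optc, Podnl1 and Nepn, which encode keratocan, opticin, a podocan-like protein and nephrocan, were at background on every array. No size of change can be given for these 4, which are among the 7 with a lower mean. Chadl, a chondroadherin-like gene, differed by 0.19 ± 0.131 on the log2 scale (SE; limma adjusted p = 0.57).

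The collagens that these proteoglycans bind had 0 of 12 measured genes changed. An unadjusted p under 0.05 was found for 4, all with a higher MCT4KO mean (over all genes 12.7% in either direction and 5.76% higher). The median log2 change was 0.20, and 0.15 with low values raised to the control median. Col5a2 and Col14a1 were at background on every array. Col2a1, the main fibrillar collagen of cartilage and nucleus pulposus, read 10.08, 9.22 and 8.85 in MCT4KO 1 to 3, against 8.29, 8.10, 7.58 and 8.30 in WT 1 to 4. The groups did not overlap, and the log2 change of 1.32 ± 0.286 (SE; limma adjusted p = 0.088) did not pass. Col11a1, which sits inside type II collagen fibrils, differed by 0.76 ± 0.241 (limma adjusted p = 0.25). Col3a1 differed by 0.54 ± 0.225 (limma adjusted p = 0.37). It was at background in WT and above the control median on only 1 array, so the size of its difference is uncertain.

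Among 20 ligands and receptors, including TGF-beta isoforms and the Toll-like receptors that sense free biglycan, 0 changed. The median log2 change was 0.20, and 0.076 with low values raised to the control median. Bmp2, Bmp4, Ccn4, Itga2 and Tnf were at background on every array. At an unadjusted p under 0.05, 2 were higher and 1 lower, against 5.76% higher and 6.90% lower over all genes. Met, the hepatocyte growth factor receptor to which decorin binds, differed by 0.36 ± 0.136 (SE; limma adjusted p = 0.32). Tlr2 read 8.36, 9.21 and 8.91 in MCT4KO 1 to 3, against 9.18, 9.90, 9.11 and 9.90 in WT 1 to 4, and the log2 change was -0.70 ± 0.265 (SE; limma adjusted p = 0.32). Igf1r, the receptor of insulin-like growth factor 1, differed by 0.36 ± 0.162 (limma adjusted p = 0.39).

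Of 15 processing and cleavage enzymes and their enhancers, 1 rose and 0 fell, against 0.118% higher and 0.472% lower over all genes. At an unadjusted p under 0.05 in the limma fit, 1 was higher and 1 lower, against 5.76% and 6.90% over all genes. The median log2 change was -0.0069. Tll1, Mmp2, Mmp3, Mmp13 and Adamts4 were at background on every array. Pcolce2, an enhancer of procollagen C-proteinase, the enzyme class that also trims probiglycan, read 14.77, 14.89 and 15.18 in MCT4KO 1 to 3, against 14.15, 14.03, 14.09 and 14.22 in WT 1 to 4. The groups did not overlap, and Pcolce2 rose by 0.83 ± 0.140 on the log2 scale (SE; limma adjusted p = 0.041). This call ended when any 1 of the 7 animals was left out, with limma adjusted p from 0.068 to 0.11 and changes of 0.71 to 0.91. Adamts1, a matrix protease, read 8.94, 11.56 and 10.51 in MCT4KO 1 to 3, against 12.01, 12.39, 12.30 and 11.91 in WT 1 to 4, and the log2 change was -1.82 ± 0.483 (SE; limma adjusted p = 0.16). Mmp9, shared with the neutrophil list, had a change of -0.74 ± 0.429 (SE; limma adjusted p = 0.50) with means of 4.06 in MCT4KO and 4.80 in WT, both below the control medians.

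Of 25 enzymes that build and sulfate the glycan chains or sulfate tyrosines, 0 rose and 1 fell, against 0.118% higher and 0.472% lower over all genes. At an unadjusted p under 0.05 in the limma fit, 3 were higher and 2 lower, against 5.76% and 6.90% over all genes. The median log2 change was 0.063. Chpf, a chondroitin polymerising factor, read 8.34, 8.31 and 7.85 in MCT4KO 1 to 3, against 9.20, 9.37, 9.31 and 8.86 in WT 1 to 4. The groups did not overlap, and Chpf fell by 1.02 ± 0.178 on the log2 scale (SE; limma adjusted p = 0.045). The call ended without any 1 of the 7 animals (changes of -1.13 to -0.86; limma adjusted p from 0.065 to 0.12) and under quantile normalization (change -0.90; limma adjusted p = 0.074). Chst1, a keratan sulfate sulfotransferase, read 9.47, 9.14 and 8.61 in MCT4KO 1 to 3, against 7.92, 8.35, 8.61 and 8.33 in WT 1 to 4, and differed by 0.77 ± 0.224 (SE; limma adjusted p = 0.20). Chst11, a chondroitin 4-sulfotransferase, differed by 0.38 ± 0.135 (SE; limma adjusted p = 0.30).

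**Figure D4:**
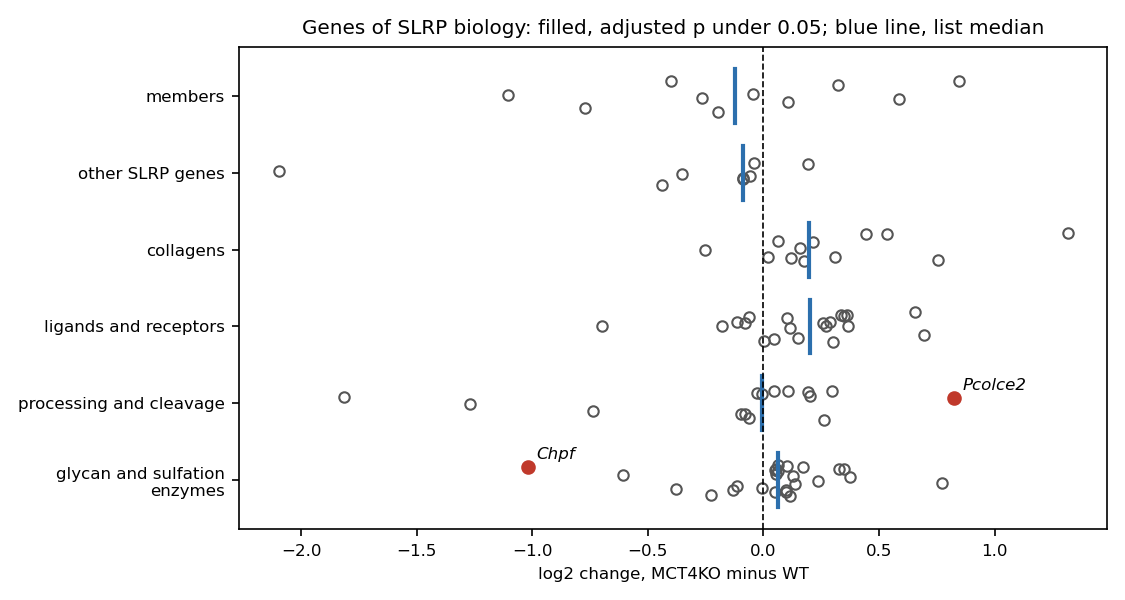
Log2 change, MCT4KO minus WT, of each measured gene in 6 lists, with called genes (adjusted p under 0.05) filled and the list median as a blue line. Pcolce2 (0.83) and Chpf (-1.02) are the 2 called genes, and the median of the 10 proteoglycan genes lies at -0.12.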

How the data were processed

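Nucleus pulposus RNA of 7 mice was measured, 1 array per animal. The submitters' processing notes name Affymetrix Expression Console 1.4.1. The authors deposited 1 log2 value per feature; the sources used here do not give background correction or normalization. The log2 scale is read from the values, and its top, 19.41, exceeds a scanner's range, so folds are on the deposited scale. Of 28846 features, 19572 carried 1 gene symbol and 0 carried several, and 2634 transcript clusters carried none here. All 19572 were matched by gene identifier to RefSeq GRCm38.p6, used for names and gene order. The feature with the highest mean stood for a gene, giving 19505 genes.

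Limma 3.58.1 (R 4.3.3; lmFit, eBayes, 5 residual and 4.66 prior degrees of freedom, median SE 0.167) compared MCT4KO with WT over all genes, two-sided, without covariates. The fit was tested on simulated data. A group was at background when each array read at or below its control median. Animals are biological replicates, and their number limits precision. Promoters are from RefSeq, GRCm38.p6, where 8 of the 10 genes matched (not Dcn and Lum).

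The 10 genes and the lists were chosen with earlier results of these data known. Genes to name were drawn from all 10 genes, Slc16a3, called list members, up to 3 members (markers: 2) with the smallest p per list, markers at background and the 3 nearest genes per member. Some markers so drawn are given by their list alone. Col10a1 and the Y-linked Uty, Eif2s3y and Kdm5d were added after their values were seen. Listed genes without a named feature were not analysed here.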

Additional observations from a re-analysis of the deposited data

Results flagged for a closer look

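In a screen of 42 named genes for a WT animal far from the other 3 (Dixon's test, which chance passes in about 1 in 20 groups), 3 had one, and none was among the 10 proteoglycan genes. Chst11 read 13.85 in WT 4, above 13.57, 13.59 and 13.60 in the other WT animals. Thbs4 read 5.33 in WT 3, below 5.90, 6.00 and 6.00 in the others and below the control median. Cd24a, a nucleus pulposus surface marker, read 17.43 in WT 3, below 17.46 in each of the others.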

How the results depend on the processing

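The count of 0 called proteoglycan genes held under quantile normalization, median centring, the filter on low genes, averaged features, a trended robust prior, values without WT 1 and WT 2 or without WT 1 and MCT4KO 3 (both chosen after seeing the data), and the replicate block. It was 0 to 1 without 1 animal, with Aspn called without MCT4KO 1. The count over all genes was 15 to 64 without 1 animal, 16 without WT 1 and WT 2 and 17 without WT 1 and MCT4KO 3. It was 6 with the replicate block, whose numbers do not pair the animals (correlations of same-numbered animals' deviations -0.13, 0.016 and 0.050). Signs turned only among uncalled genes. The block gave Omd 0.35. Leaving out WT 1 and MCT4KO 3 gave Dcn 0.96, Prelp 0.035, Omd 0.17 and Chad 0.025. Leaving out 1 animal gave ranges of -2.33 to 1.38 for Dcn, -2.45 to 0.41 for Chad, -0.78 to 0.39 for Omd and -0.057 to 0.36 for Epyc. The filter on low genes dropped Lum, Aspn, Omd and Epyc. It gave a median of -0.23 over the 6 genes left. Without 1 animal the median of the 10 genes ranged from -0.21 to 0.33, and it was -0.10 with low values raised to the control median. Pcolce2, Chpf and Snorc lost their calls with the replicate block (limma adjusted p = 0.16, 0.093 and 0.14), with changes of 0.86, -1.13 and -1.51. The cause of these shifts was not tested. With 3 and 4 arrays, the smallest change called over all genes was 0.73 log2 units, and Aspn, Lum, Omd and Epyc are limited by their low signal.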
